A study of Homo sapiens with 10 samples.

Results

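Described here are 10 genes that encode AP-1 subunits and immediate early transcription factors: FOS, FOSB, FOSL1, FOSL2, JUN, JUNB, JUND, ATF3, EGR1 and MAFF. They were chosen by name, as the rows of 10 mRNA count tables whose symbol is one of these, out of 52402 symbols in all, and each of the 10 passed the filter on low counts that left 14884 genes to test. The cells were BEAS2B, an established human bronchial epithelial line, transfected for 48 h with Lipofectamine 2000 in every group, controls included. The 5 groups had 2 libraries each. The miRcontrol group received a scrambled miRNA, the miR3124_mimic group a double-stranded imitation of miR-3124-5p, the miR200b_mimic group one of miR-200b-3p, and the miR92b_inhibitor group an antisense oligonucleotide against miR-92b, each at 50 nM. The mixed group received all 3 active oligonucleotides together, in amounts that the sources used here do not state. The labels do not say which arm of miR-92b the inhibitor binds, and no source says whether the 2 libraries of a group came from separate cultures, so that p-values measure the spread between these libraries, which may be technical.

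AP-1 is a dimer of basic leucine zipper proteins. A Jun protein pairs with a Fos protein, with an ATF protein or with another Jun protein, and the pair binds short DNA elements in the promoters and enhancers of genes for proliferation, matrix breakdown and inflammation. FOS, FOSB, JUNB, ATF3 and EGR1 are classic immediate early genes, whose transcription starts within minutes of a growth factor, a stress or a wound without new protein synthesis and whose mRNAs decay fast. FOSL1, FOSL2 and JUND are slower members that are often present in resting or steadily growing cells. EGR1 is a zinc finger factor outside AP-1 that the same kinase pathways induce, and MAFF is a small Maf protein that lacks a transactivation domain and acts by pairing with other leucine zipper proteins.

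Library totals ranged from 13587666 to 18503890 counts, and no library stood apart in depth. The epithelial markers KRT8 and KRT18 were high in each library, with 10684 counts or more, while TP63, a basal cell factor, and GRHL2, an epithelial factor, had at most 2 counts in any library and KRT5 at most 9. EPCAM and CDH1 had 0.055 to 0.458 CPM (the normalized count scaled to the library total) outside the miR200b_mimic and mixed libraries and between 1.94 and 10.9 CPM in those 4, so that several defining epithelial markers were near 0 in the line as sequenced. The summed level of the 9 epithelial markers was 1443 to 1460 CPM in miRcontrol, 1944 to 1957 with miR3124_mimic, 2670 to 2710 with miR200b_mimic, 1401 to 1458 with miR92b_inhibitor and 2638 to 2645 in the mixed group, and its part in the results below was not tested. KRT8 and KRT18 made up most of this sum, with 814 and 619 CPM in miRcontrol replicate 1. KRT19 had 8.47 and 7.94 CPM in miRcontrol. It was lower with miR3124_mimic (0.615 and 0.905) and in the mixed group (2.49 and 2.74), where the sum was higher. With miR200b_mimic KRT19 was higher (13.8 and 15.1). Of 7 fibroblast markers DCN and LUM had at most 3 counts in each library, and the sum of the 7 was 18.9 to 20.7 CPM in miRcontrol, 53.5 to 53.9 with miR3124_mimic, 40.0 to 40.2 with miR200b_mimic, 15.4 to 15.8 with miR92b_inhibitor and 33.2 to 35.1 in the mixed group. COL1A1 had 12.99 and 10.98 CPM in miRcontrol, 22.7 and 24.9 with miR3124_mimic and 36.9 in both miR200b_mimic libraries. PDGFRB had 7.61 and 7.64 CPM in miRcontrol and 30.9 and 28.0 with miR3124_mimic, but 3.14 and 2.93 with miR200b_mimic. Of 6 blood and endothelial markers PTPRC and CD3E had at most 3 counts in each library, while CD68 had 26.3 and 27.0 CPM in miRcontrol and 38.8 and 40.7 with miR92b_inhibitor, and the sum of the 6 was 26.7 to 27.5 CPM in miRcontrol, 26.9 to 28.2 with miR3124_mimic, 17.5 to 20.2 with miR200b_mimic, 39.2 to 41.3 with miR92b_inhibitor and 23.3 to 25.1 in the mixed group. CDH5, of the same list, had 0.057 and 0.060 CPM in miRcontrol and 4.03 and 2.49 with miR3124_mimic. The part of these markers in the results was not tested either. The mRNA counts do not measure the transfected oligonucleotides, so the labels could not be checked that way. In a bulk library, fewer cells that express a gene and less RNA of it per cell cannot be told apart.

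The oligonucleotides are shown first because the seed, bases 2 to 8 of a miRNA, is the stretch that pairs with a target mRNA. The mature sequences are from RefSeq (GRCh38.p14), 5′ to 3′, with the seed in capitals. Both arms of miR-92b are given because the label names neither.
hsa-miR-3124-5p: uUCGCGGGcgaaggcaaaguc
hsa-miR-200b-3p: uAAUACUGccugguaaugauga
hsa-miR-92b-5p: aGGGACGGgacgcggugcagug
hsa-miR-92b-3p: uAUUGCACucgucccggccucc
No 2 of these seeds are the same. The word of 7 bases that pairs with a seed was looked for in 1 GENCODE v29 transcript of each member, on the transcript's strand. The word of miR-3124-5p, CCCGCGA, is rare in 3′UTRs (0.529% of 18722) and was in no member's transcript. The word of miR-200b-3p, CAGTATT, is in 14.2% of 3′UTRs and was in those of FOSL2, JUN and EGR1. The word of miR-92b-5p, CCGTCCC (3.19% of 3′UTRs), was in that of FOSB, and the word of miR-92b-3p, GTGCAAT (9.34%), in those of FOSL2 and EGR1. These 6 sites are printed as stretches of 30 bases, with the word in capitals, so that they can be set beside the values of the same genes.
FOSL2, miR-200b-3p word: aatacaagcctaCAGTATTtgcactaaaga
JUN, miR-200b-3p word: ttcgatctcattCAGTATTaaaggggggag
EGR1, miR-200b-3p word: aaacagcagtccCAGTATTctcagagcatg
FOSB, miR-92b-5p word: attggcaatgggCCGTCCCctctccccttg
FOSL2, miR-92b-3p word: gaaggggacaaaGTGCAATacagagccttc
EGR1, miR-92b-3p word: atggcttgacatGTGCAATtgtgagggaca
Before the 3′UTR, only the miR-92b-5p word occurred, 1 time in ATF3 and 2 times in EGR1. Over whole transcripts this word is in 11.8% of 19520. JUND held none of the 4 words. The AU-rich pentamer ATTTA, a word common in short-lived mRNAs, was in the 3′UTR of each of the 10 members, from 1 time in FOSL1, JUND and EGR1 to 9 times in FOSL2, and is in 63.1% of 3′UTRs. A match is a description of letters and not a shown target site.

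Promoters are shown for FOS, JUND and EGR1, since these genes had the largest changes among the members. Each is the RefSeq stretch from 250 bases before to 50 bases after the start of the gene on GRCh38.p14, read 5′ to 3′ on the gene's strand. Capitals mark the core of the cyclic AMP response element (CRE), TGACG on either strand, the full CRE, TGACGTCA, which contains the core on both strands, and the CArG box, the element bound by serum response factor (SRF).
FOS, chr14:75278578-75278877, plus strand: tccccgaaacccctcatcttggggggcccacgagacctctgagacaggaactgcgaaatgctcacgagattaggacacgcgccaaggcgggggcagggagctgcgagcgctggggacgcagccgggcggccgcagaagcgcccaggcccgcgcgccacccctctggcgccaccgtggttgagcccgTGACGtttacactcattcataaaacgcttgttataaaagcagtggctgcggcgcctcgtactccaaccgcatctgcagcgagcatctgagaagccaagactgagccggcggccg
JUND, chr19:18281573-18281872, minus strand: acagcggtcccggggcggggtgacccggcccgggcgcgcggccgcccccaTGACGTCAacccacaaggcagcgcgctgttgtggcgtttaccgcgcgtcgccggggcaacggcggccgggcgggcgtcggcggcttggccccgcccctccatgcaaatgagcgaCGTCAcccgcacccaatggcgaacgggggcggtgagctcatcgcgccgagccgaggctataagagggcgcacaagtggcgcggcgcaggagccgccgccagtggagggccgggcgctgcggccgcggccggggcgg
EGR1, chr5:138465229-138465528, plus strand: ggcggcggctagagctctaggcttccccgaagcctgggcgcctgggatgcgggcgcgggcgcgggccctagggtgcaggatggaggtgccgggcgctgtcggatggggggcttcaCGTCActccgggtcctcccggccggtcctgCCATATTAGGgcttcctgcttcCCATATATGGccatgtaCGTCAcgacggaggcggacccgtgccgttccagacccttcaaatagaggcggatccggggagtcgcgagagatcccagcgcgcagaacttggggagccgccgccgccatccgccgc
The promoter table held 9 of the 10 members, without FOSL1. The CRE core was in 8 of these 9 and in 25.01% of the 27305 promoters of the table. ATF3 had none in its window, which lies at the outer start of a gene that spans 55371 bases. Only 1 window a gene was searched, and no start further inside a gene. JUND and MAFF held the full CRE, as did 1.98% of all promoters. Within these windows EGR1 held 2 CArG boxes, a motif in 1.29% of promoters, and FOSL2 the AP-1 site TGANTCA, found in 7.76%. The FOS window held no CArG box, and DNA more than 250 bases before the start was not searched. The TATA word TATAAA was in FOS, FOSB and JUNB and in 11.95% of all promoters, and MAFF held the STAT site TTCCNGGAA, found in 1.22%.

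Across the 5 groups 9 of the 10 members differed, FOSL2 being the exception (adjusted p = 0.765), by edgeR's quasi-likelihood F test with Benjamini-Hochberg adjustment over all genes. Since 77.0% of all genes tested passed the same test, that count says little about the members. The comparisons with miRcontrol show which members differed from it in each of the other groups. With miR3124_mimic 3 members rose (FOS, JUNB and MAFF) and 3 fell (FOSL1, JUN and JUND), where 25.7% of all genes rose and 25.3% fell. With miR200b_mimic 6 rose (FOS, JUNB, JUND, ATF3, EGR1 and MAFF) where 21.4% of genes rose, and JUN alone lay below miRcontrol, at a log2 change of -0.04 that did not pass, where 19.1% of genes fell. With miR92b_inhibitor 8 rose, all but FOSL2 and JUND, where 17.5% of genes rose, and JUND fell, where 18.2% did. In the mixed group 6 rose (FOS, FOSL1, JUNB, ATF3, EGR1 and MAFF) where 21.5% of genes rose, and JUND fell, where 21.1% did. The median log2 change of the 10 members was -0.0019, 0.53, 0.68 and 0.67 in these 4 comparisons, beside medians over all genes of 0.0039, -0.0055, -0.0061 and 0.003.

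Fewer members passed when a change of at least 2-fold was also asked for. FOS rose past it in each of the 4 comparisons. It was the only such member with miR3124_mimic, where 5.37% of genes rose that far, and was joined by EGR1 with miR200b_mimic (2.72% of genes) and in the mixed group (3.14%), and by EGR1 and ATF3 with miR92b_inhibitor (0.988%). JUND was the only member to fall that far, with miR3124_mimic, where 2.75% of genes did. With miR200b_mimic, miR92b_inhibitor and the mixed group 2.16%, 0.927% and 1.53% of genes fell at least 2-fold, and 0 members did so by edgeR with an adjusted p, with an unadjusted p under 0.05 or by DESeq2. The 4 comparisons share the miRcontrol libraries, so their values are set side by side and no overlap between them is tested.

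**Figure D1:**
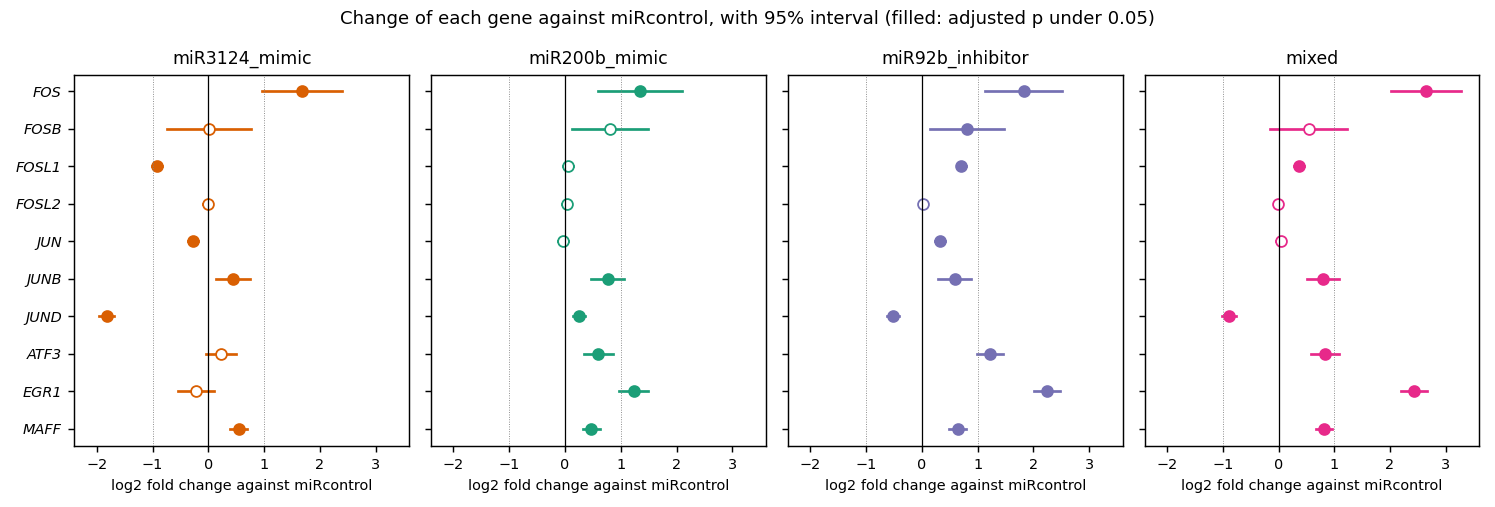
Log2 fold change of each of the 10 genes against miRcontrol (horizontal axis) in the 4 transfected groups, with 95% intervals from edgeR's quasi-likelihood fit and filled points where the adjusted p is under 0.05. FOS lies right of 1.3 in each panel, JUND lies left of 0 in all panels but miR200b_mimic, and FOSL2 lies at 0 in each.

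FOS, the founding Fos protein and a standard mark of acute stimulation, was scarce. It had 0.687 and 0.716 CPM in miRcontrol (12 counts in each library), 2.05 and 2.43 with miR3124_mimic, 1.87 and 1.73 with miR200b_mimic, 1.81 and 3.18 with miR92b_inhibitor, and 4.42 and 4.41 in the mixed group (80 and 82 counts). Each transfected library lay above both miRcontrol libraries, and the mixed libraries above all others. FOS rose 3.19-fold with miR3124_mimic (log2 1.67 ± 0.36 SE, adjusted p = 9.15e-05), 2.54-fold with miR200b_mimic (1.34 ± 0.38, adjusted p = 0.00312), 3.55-fold with miR92b_inhibitor (1.83 ± 0.34, adjusted p = 3.18e-05) and 6.24-fold in the mixed group (2.64 ± 0.31, adjusted p = 1.16e-09). In the order of levels, the mixed group was above miR92b_inhibitor (log2 difference 0.82, adjusted p = 0.00622), a step that did not pass without miR92b_inhibitor replicate 1 (0.48, adjusted p = 0.191) or by DESeq2 (adjusted p = 0.0650). The 2 steps among the 3 single oligonucleotides did not pass, and that from miR200b_mimic to miRcontrol did. The interval of the difference between miR92b_inhibitor and miR3124_mimic ran from -0.40 to 0.71.

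FOSB, a close relative of FOS, was as scarce, with 18 to 46 counts in a library. It had 1.14 and 1.25 CPM in miRcontrol, 1.23 and 1.19 with miR3124_mimic, 1.94 and 2.24 with miR200b_mimic, 1.69 and 2.52 with miR92b_inhibitor, and 2.10 and 1.40 in the mixed group. The miR3124_mimic libraries overlapped miRcontrol, and those of the other 3 groups lay above it. FOSB rose 1.76-fold with miR92b_inhibitor at the edge of the threshold (log2 0.82 ± 0.33, adjusted p = 0.0498). That call was lost by DESeq2 (adjusted p = 0.158), with a replicate block (adjusted p = 0.0542), and without either miRcontrol library (adjusted p = 0.194 and 0.127) or miR92b_inhibitor replicate 2 (0.50, adjusted p = 0.428). With miR200b_mimic the change was of the same size and did not pass (log2 0.81 ± 0.34, adjusted p = 0.0515), but it passed with TMM (adjusted p = 0.0495), edgeR's exact test (0.0386), the 2 groups alone (0.0464), no filter (0.0431) and at least 10 counts in every library (0.0308). The remaining values were 0.01 with miR3124_mimic (adjusted p = 0.986) and 0.54 in the mixed group (adjusted p = 0.208), and no neighbours in the order of levels differed. Farther apart in the order, miR200b_mimic (log2 difference 0.80, adjusted p = 0.0424) and miR92b_inhibitor (0.80, adjusted p = 0.0363) were above miR3124_mimic. The mixed group and miR92b_inhibitor did not differ (adjusted p = 0.517).

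FOSL1, which encodes FRA1, a Fos protein that is abundant in many epithelial and tumour lines, was the member with the lowest p across the groups. Its level was 278 and 261 CPM in miRcontrol, 148 and 137 with miR3124_mimic, 269 and 289 with miR200b_mimic, 436 and 447 with miR92b_inhibitor, and 338 and 359 in the mixed group. Only the miR200b_mimic libraries overlapped miRcontrol. FOSL1 fell 1.90-fold with miR3124_mimic (log2 -0.92 ± 0.05, adjusted p = 1.39e-22), rose 1.64-fold with miR92b_inhibitor (0.71 ± 0.04, adjusted p = 7.39e-19) and rose 1.29-fold in the mixed group (0.37 ± 0.04, adjusted p = 2.71e-10). With miR200b_mimic the change of 0.05 did not pass (adjusted p = 0.377, interval -0.04 to 0.14). From the highest level to the lowest the order was miR92b_inhibitor, mixed, miR200b_mimic, miRcontrol and miR3124_mimic, and each step but that from miR200b_mimic to miRcontrol passed.

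FOSL2, which encodes FRA2, was the steady member. Its lowest and highest libraries had 231 and 247 CPM, with 237 and 240 in miRcontrol. The log2 changes were -0.01 with miR3124_mimic, 0.03 with miR200b_mimic, 0.02 with miR92b_inhibitor and -0.01 in the mixed group, with adjusted p from 0.603 to 0.881. Their 95% intervals ran from -0.09 to 0.11, so a change as large as that of FOSL1 in any of the 3 groups where it moved lies outside them. FOSL2 carries 3′UTR words of both miR-200b-3p and miR-92b-3p, printed above.

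**Figure D2:**
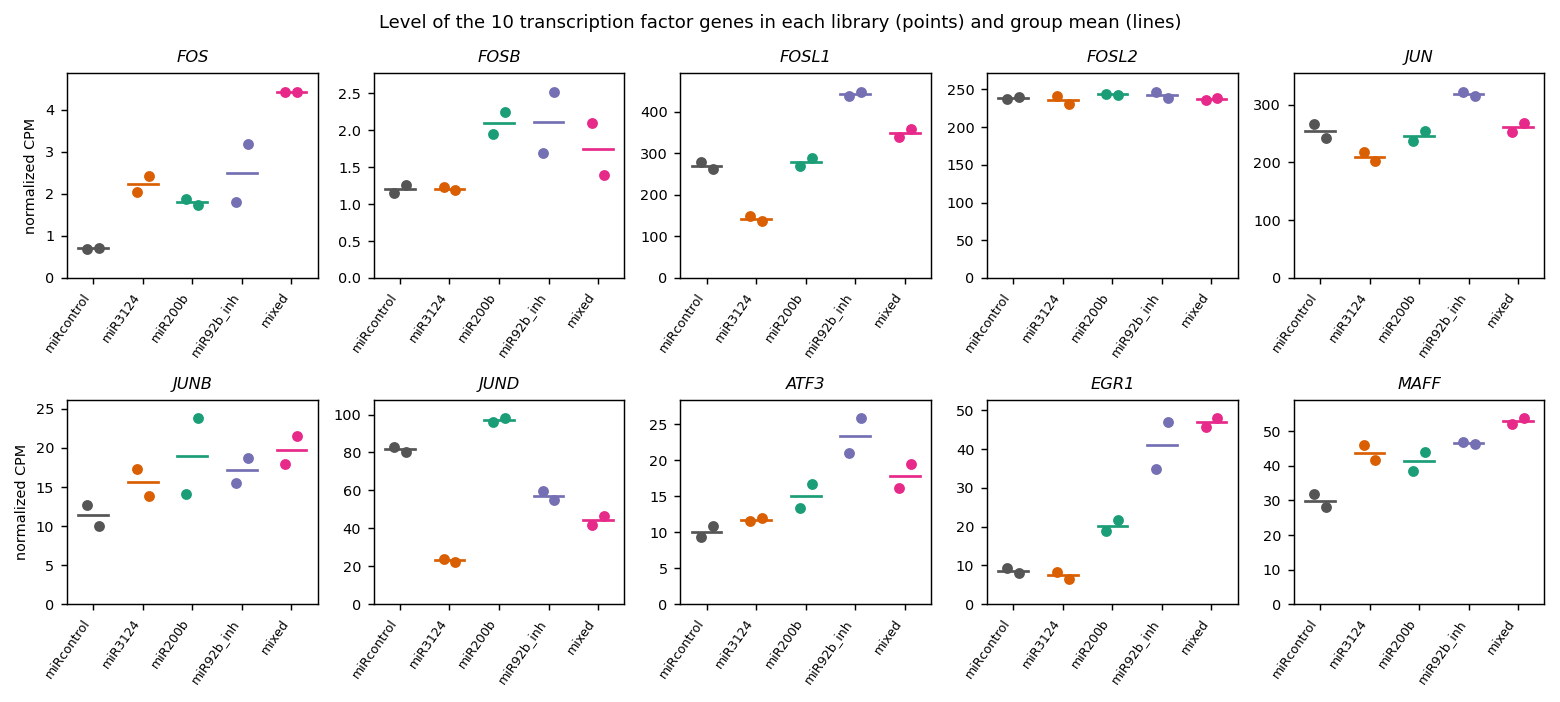
Normalized CPM (vertical axis, from 0, with its own scale in each panel) of the 10 genes in the 10 libraries, by group, each point being 1 library and each line the mean of 2. The 2 points of a group lie close together for FOSL1, FOSL2, JUN and JUND, and farther apart for FOSB and JUNB, as the 14.1 and 23.8 CPM of JUNB with miR200b_mimic show.

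JUN, which encodes c-Jun, the main partner of the Fos proteins and a substrate of the JNK kinases, moved little. The libraries had 266 and 243 CPM in miRcontrol, 218 and 202 with miR3124_mimic, 238 and 255 with miR200b_mimic, 322 and 315 with miR92b_inhibitor, and 253 and 269 in the mixed group. JUN fell 1.21-fold with miR3124_mimic (log2 -0.28 ± 0.04, adjusted p = 6.49e-07) and rose 1.25-fold with miR92b_inhibitor (0.32 ± 0.04, adjusted p = 3.68e-08). With miR200b_mimic (-0.04, adjusted p = 0.460) and in the mixed group (0.04, adjusted p = 0.527) its libraries overlapped miRcontrol. JUN holds a 3′UTR word of miR-200b-3p, and the interval of its change with miR200b_mimic was -0.13 to 0.04.

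JUNB, a Jun protein that often restrains c-Jun, was low, and its paired libraries were uneven. It had 12.7 and 10.0 CPM in miRcontrol, 17.3 and 13.9 with miR3124_mimic, 14.1 and 23.8 with miR200b_mimic, 15.5 and 18.7 with miR92b_inhibitor, and 17.9 and 21.6 in the mixed group. Both libraries of each transfected group lay above both of miRcontrol. JUNB rose by log2 0.44 ± 0.15 with miR3124_mimic (adjusted p = 0.0129), 0.77 ± 0.15 with miR200b_mimic (adjusted p = 2.87e-05), 0.59 ± 0.15 with miR92b_inhibitor (adjusted p = 0.00124) and 0.79 ± 0.14 in the mixed group (adjusted p = 9.73e-06), and the 4 transfected groups did not differ between neighbours. Farther apart in the order, miR200b_mimic (log2 difference 0.32, adjusted p = 0.0470) and the mixed group (0.35, adjusted p = 0.0308) were above miR3124_mimic. The mixed group and miR92b_inhibitor did not differ (0.20, adjusted p = 0.234).

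Single libraries decided several of these JUNB calls. The rise with miR200b_mimic was 0.31 without its replicate 2 (adjusted p = 0.157). That with miR3124_mimic did not pass without miRcontrol replicate 2 (0.28, adjusted p = 0.210), without miR3124_mimic replicate 1 (0.29, adjusted p = 0.192) or by DESeq2 (adjusted p = 0.241). With miR92b_inhibitor the adjusted p was 0.0622 without miRcontrol replicate 2, 0.0664 without miR92b_inhibitor replicate 2 and 0.127 by DESeq2. The rise in the mixed group passed under each alternative tried. Between neighbours, the mixed group was above miR200b_mimic without replicate 2 of the latter (0.48, adjusted p = 0.0147), and miR92b_inhibitor was below miR200b_mimic without replicate 1 of the latter (-0.48, adjusted p = 0.00280). JUNB also overlaps HOOK2, a gene on the other strand, over 865 bases, and HOOK2 was higher by 0.33 with miR3124_mimic (adjusted p = 0.0227), 1.18 with miR200b_mimic (adjusted p = 2.62e-12) and 1.04 in the mixed group (adjusted p = 7.22e-11), against -0.11 with miR92b_inhibitor (adjusted p = 0.543). The library kit keeps strand, but the strand setting of the counting is not given in the sources used here, and the part of HOOK2 reads in the JUNB counts was not tested.

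JUND, the Jun protein that is present without stimulation and tends to slow growth, had the largest fall of any member. Its level was 82.9 and 80.5 CPM in miRcontrol, 23.7 and 22.5 with miR3124_mimic, 96.0 and 98.1 with miR200b_mimic, 59.5 and 54.9 with miR92b_inhibitor, and 41.7 and 46.7 in the mixed group. No 2 groups overlapped. JUND fell 3.54-fold with miR3124_mimic (log2 -1.82 ± 0.07, adjusted p = 4.25e-27), 1.43-fold with miR92b_inhibitor (-0.52 ± 0.06, adjusted p = 5.21e-10) and 1.85-fold in the mixed group (-0.89 ± 0.06, adjusted p = 2.43e-17), and it rose 1.19-fold with miR200b_mimic (0.25 ± 0.05, adjusted p = 0.000189). It was the 70th gene from the lowest by log2 change with miR3124_mimic, of 14884. Each step in its order of levels passed, the smallest being that from miR200b_mimic to miRcontrol. No transcript word of the 4 seeds was found in JUND.

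Levels between genes can be compared only per length, and CPM per kilobase of the merged exons of a gene (CPM per kb) was used for that. In miRcontrol FOSL1 was the most abundant member by mean (143 CPM per kb), followed by JUN (71.9), JUND (43.9) and FOSL2 (33.3), with JUNB (6.25), MAFF (5.33), EGR1 (2.77) and ATF3 (2.49) lower and FOS (0.217) and FOSB (0.216) lowest. The merged exons of MAFF and ATF3 (5615 and 4040 bases) are longer than the transcripts searched for seed words (2490 and 2033 bases). The order of the lower members therefore depends on the length used. FOS reached 1.36 CPM per kb in the mixed group, where its rise was 6.24-fold. FOSL1 made up 80.9% of the Fos family's CPM per kb in miRcontrol, 69.0% with miR3124_mimic, 80.9% with miR200b_mimic, 87.0% with miR92b_inhibitor and 84.1% in the mixed group, while FOS made up 0.635% or less in group means. The Jun family was JUN and JUND in the main. JUND made up 36.0% of it in miRcontrol, 15.5% with miR3124_mimic, 39.5% with miR200b_mimic, 23.6% with miR92b_inhibitor and 21.9% in the mixed group. JUN took 58.9% of the family in miRcontrol and 73.9% with miR3124_mimic, although JUN itself fell there. Transcript shares of this kind say nothing of protein or of dimers, which were not measured.

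**Figure D3:**
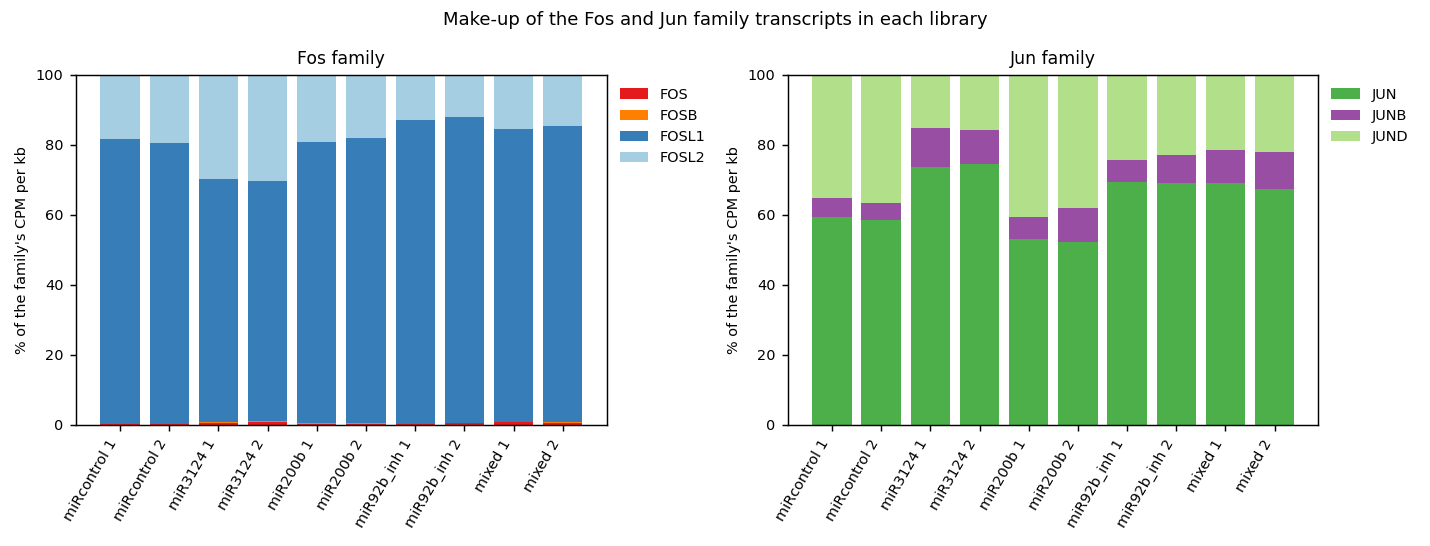
Share of each gene in the summed CPM per kb of the Fos family (left) and the Jun family (right), in percent, 1 bar a library. FOSL1 fills between 68.5% and 87.2% of the Fos bars, and the JUND part of the Jun bars shrinks from 35.2% and 36.8% in miRcontrol to 15.2% and 15.7% with miR3124_mimic.

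ATF3, a stress-induced factor that pairs with Jun proteins, had 9.33 and 10.8 CPM in miRcontrol, 11.54 and 11.94 with miR3124_mimic, 13.4 and 16.7 with miR200b_mimic, 20.9 and 25.8 with miR92b_inhibitor, and 16.1 and 19.5 in the mixed group. Each transfected library was above both miRcontrol libraries. It rose 2.33-fold with miR92b_inhibitor (log2 1.22 ± 0.12, adjusted p = 1.43e-11), 1.78-fold in the mixed group (0.83 ± 0.12, adjusted p = 2.31e-07) and 1.51-fold with miR200b_mimic (0.59 ± 0.13, adjusted p = 0.000187). The change with miR3124_mimic was 0.23 and did not pass (adjusted p = 0.166). The mixed group was below miR92b_inhibitor (log2 difference 0.39, adjusted p = 0.00249), a step that did not pass without miR92b_inhibitor replicate 2 (adjusted p = 0.183) or mixed replicate 1 (adjusted p = 0.109).

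By fitted fold EGR1 rose less than FOS with miR200b_mimic and in the mixed group, and more with miR92b_inhibitor. The changes of these 2 genes were not tested against each other. In mean CPM per kb, EGR1 went from 2.77 in miRcontrol to 6.47 with miR200b_mimic, 13.1 with miR92b_inhibitor and 14.9 in the mixed group. Its libraries had 9.44 and 7.94 CPM in miRcontrol, 8.40 and 6.62 with miR3124_mimic, 19.0 and 21.6 with miR200b_mimic, 35.01 and 47.08 with miR92b_inhibitor, and 45.785 and 47.998 in the mixed group, from 117 counts at the lowest to 892 at the highest. Only the miR3124_mimic libraries overlapped miRcontrol. EGR1 rose 2.35-fold with miR200b_mimic (log2 1.23 ± 0.13, adjusted p = 6.75e-11), 4.72-fold with miR92b_inhibitor (2.24 ± 0.11, adjusted p = 1.12e-20) and 5.38-fold in the mixed group (2.43 ± 0.11, adjusted p = 3.96e-23). By log2 change it was the 41st highest of 14884 genes with miR92b_inhibitor. With miR3124_mimic the change was -0.23 (adjusted p = 0.242, interval -0.55 to 0.09). The mixed group and miR92b_inhibitor did not differ (0.19, adjusted p = 0.0789), but without miR92b_inhibitor replicate 2 the mixed group was higher (0.42, adjusted p = 0.000743). The 3′UTR of EGR1 holds the words of miR-200b-3p and miR-92b-3p printed above, and its transcript 2 words of miR-92b-5p, and their part in these changes was not tested.

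MAFF had 31.7 and 28.1 CPM in miRcontrol, 46.0 and 41.5 with miR3124_mimic, 38.4 and 44.1 with miR200b_mimic, 46.9 and 46.4 with miR92b_inhibitor, and 52.1 and 53.8 in the mixed group. All 8 transfected libraries were above both miRcontrol libraries. MAFF rose in each of the 4 comparisons, which share the miRcontrol libraries. The rise was 1.46-fold with miR3124_mimic (log2 0.54 ± 0.08, adjusted p = 3.15e-08), 1.39-fold with miR200b_mimic (0.47 ± 0.08, adjusted p = 1.46e-06), 1.56-fold with miR92b_inhibitor (0.64 ± 0.07, adjusted p = 1.20e-09) and 1.77-fold in the mixed group (0.82 ± 0.07, adjusted p = 1.89e-13). The mixed group was above miR92b_inhibitor by 0.18 (adjusted p = 0.0255), which did not pass by DESeq2 (adjusted p = 0.124) or without any 1 of the 4 libraries compared (adjusted p from 0.0548 to 0.154). MAFF shares 117 bases with TMEM184B on the other strand. TMEM184B changed by -1.77 with miR3124_mimic (adjusted p = 1.39e-29) and -1.05 in the mixed group (adjusted p = 3.24e-22), by -0.19 with miR92b_inhibitor (adjusted p = 0.00174) and by 0.11 with miR200b_mimic (adjusted p = 0.0607). The part of its reads in the MAFF counts was not tested.

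The mixed group allowed each member's change to be set against the sum of the 3 single changes on the log2 scale, which is what independent, multiplying effects at the same doses would give. The amounts in the mixture are not stated, so a departure cannot be told apart from a difference in dose. The mixed value was below the sum for 5 members (10.1% of all genes lay below) and above it for 2 (11.7% lay above). For FOS the sum was 4.84 and the mixed change 2.64 (difference -2.20 ± 0.71, adjusted p = 0.0198). The differences were -1.21 ± 0.25 for ATF3 (adjusted p = 0.000264), -1.01 ± 0.30 for JUNB (adjusted p = 0.00958), -0.83 ± 0.15 for MAFF (adjusted p = 2.48e-05) and -0.81 ± 0.27 for EGR1 (adjusted p = 0.0233). Each of these 5 genes was nonetheless higher in the mixed group than in miRcontrol, and FOS, JUNB, EGR1 and MAFF had their highest fitted change there.

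The opposite departures were those of JUND, with a sum of -2.09 and a mixed change of -0.89 (difference 1.20 ± 0.12, adjusted p = 8.42e-11), and of FOSL1, with a sum of -0.16 and a mixed change of 0.37 (difference 0.53 ± 0.08, adjusted p = 3.55e-06). Both genes lay in the mixed group between their values with miR3124_mimic and in the highest single group. The departures of FOSB (-1.10, adjusted p = 0.292), FOSL2 (-0.05, adjusted p = 0.750) and JUN (0.04, adjusted p = 0.831) did not pass. The departure of FOS was lost without either miRcontrol library (adjusted p = 0.112 and 0.0898) or miR92b_inhibitor replicate 2 (adjusted p = 0.0897). That of EGR1 was lost by DESeq2 (adjusted p = 0.159) and without miRcontrol replicate 2 (adjusted p = 0.279), miR3124_mimic replicate 1 (adjusted p = 0.112), miR200b_mimic replicate 2 (adjusted p = 0.0808) or miR92b_inhibitor replicate 2 (adjusted p = 0.0953). That of JUNB was lost by DESeq2 (adjusted p = 0.267) and without miRcontrol replicate 2 (adjusted p = 0.209) or miR200b_mimic replicate 2 (adjusted p = 0.172).

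**Figure D4:**
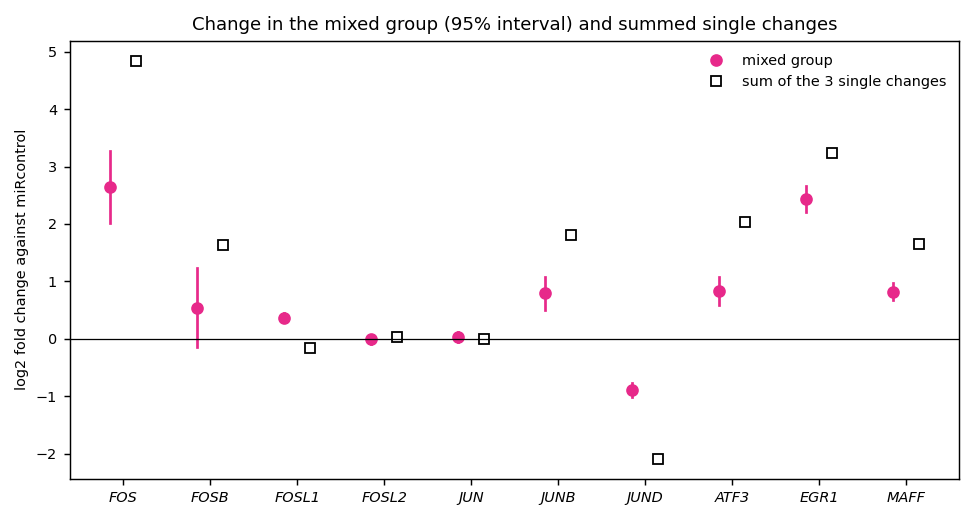
Log2 fold change against miRcontrol (vertical axis) of each gene in the mixed group (filled circles with 95% intervals) and the sum of its 3 single changes (open squares, drawn without error). The square lies above the circle for FOS, FOSB, JUNB, ATF3, EGR1 and MAFF and below it for FOSL1 and JUND, while for FOSL2 and JUN both lie near 0.

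Of 13 other dimer partners of AP-1 proteins 9 could be tested. With miR3124_mimic 4 rose and 1 fell (25.7% and 25.3% of all genes), with miR200b_mimic 1 rose and 1 fell (21.4% and 19.1%), with miR92b_inhibitor 1 rose and 3 fell (17.5% and 18.2%), and in the mixed group 3 rose and 3 fell (21.5% and 21.1%). Their median log2 change was 0.19, 0.05, -0.12 and 0.14 in these 4 comparisons. The same shares of all genes are the background of the list counts that follow. CREB5, a partner of Jun proteins, rose from 71.7 and 68.3 CPM in miRcontrol to 102 and 93.3 with miR3124_mimic (log2 0.47, adjusted p = 1.56e-10). The small Maf proteins MAFK and MAFG, relatives of MAFF, went opposite ways with miR3124_mimic, by 0.39 and -0.36 (adjusted p = 1.07e-05 and 6.07e-08). Among those 2 and MAFF, only MAFF rose in each comparison.

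Other immediate early genes differed between the groups in direction. Of 20 listed 16 were tested, and 5 rose and 8 fell with miR3124_mimic, 12 rose with miR200b_mimic with none of the other 4 passing, 5 rose and 2 fell with miR92b_inhibitor, and 8 rose and 1 fell in the mixed group. IER2 had 55.1 and 56.7 CPM in miRcontrol and 35.8 and 34.3 with miR3124_mimic, against 97.8 and 105 with miR92b_inhibitor (log2 -0.68 and 0.86, adjusted p = 1.07e-12 and 1.04e-17). KLF2, a Krüppel-like factor, fell with miR3124_mimic (-1.08, adjusted p = 2.92e-14) and in the mixed group (-0.71, adjusted p = 1.25e-09) and rose with miR92b_inhibitor (0.39, adjusted p = 6.37e-05). CTGF (CCN2), a secreted matrix protein, rose from 264 and 257 CPM to 818 and 825 with miR3124_mimic (1.66, adjusted p = 8.35e-36), the group in which FOS and MAFF rose and EGR1 and ATF3 did not pass. The median of this list was -0.21, 0.41, 0.15 and 0.28 in the 4 comparisons.

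Textbook AP-1 target genes are those with well-known AP-1 sites, such as collagenase and interleukin 8. Of 15 listed 13 were tested, and with miR92b_inhibitor 11 rose. The other 2, which did not pass, were HBEGF at 0.04 and IVL at -0.59 (adjusted p = 0.631 and 0.0713). With miR3124_mimic 6 rose and 5 fell, with miR200b_mimic 7 rose and 4 fell, and in the mixed group 9 rose and 2 fell. Their median was 0.17, 0.15, 0.40 and 0.49 in the order of the 4 comparisons.

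CXCL8, which encodes interleukin 8, had 24.4 and 21.7 CPM in miRcontrol, 29.6 and 28.7 with miR3124_mimic, 8.75 and 9.26 with miR200b_mimic, 90.3 and 113 with miR92b_inhibitor, and 37.2 and 38.8 in the mixed group. MMP1, the interstitial collagenase, had 769 and 700 CPM in miRcontrol, 971 and 942 with miR3124_mimic, 348 and 376 with miR200b_mimic, 2164 and 2140 with miR92b_inhibitor, and 1151 and 1217 in the mixed group. Both genes were highest with miR92b_inhibitor, by log2 2.14 and 1.55 (adjusted p = 2.26e-26 and 6.97e-33), and lowest with miR200b_mimic, by -1.35 and -1.02 (adjusted p = 3.17e-13 and 7.53e-26). FOS and EGR1 were among the members that rose with miR200b_mimic. PLAU, which encodes the urokinase plasminogen activator, was instead highest with miR3124_mimic, at 453 and 454 CPM against 169 and 175 in miRcontrol (1.40, adjusted p = 2.30e-32). In that group FOSL1, JUN and JUND fell, and FOS, JUNB and MAFF rose. AP-1 protein was not measured, and the part of the members' changes in those of the target genes was not tested.

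The factors and kinases that act on immediate early promoters were tested at the level of their own mRNA, which does not measure activity. Of 9 genes for SRF, its cofactors, CREB1 and the EGR corepressors NAB1 and NAB2, all tested, 3 rose (SRF, ELK4 and NAB1) and 1 fell with miR3124_mimic, 5 fell with miR200b_mimic (SRF, ELK4, MKL2, NAB1 and NAB2) with the other 4 not passing, 4 rose and 4 fell with miR92b_inhibitor, and 2 rose and 1 fell in the mixed group. ELK4 rose with miR3124_mimic (0.46, adjusted p = 1.22e-11) and fell with miR200b_mimic (-0.27, adjusted p = 1.57e-05). ELK3 rose with miR92b_inhibitor (0.46, adjusted p = 3.08e-12), and MKL1 (MRTFA), an SRF cofactor, fell with miR3124_mimic (-0.74, adjusted p = 1.30e-12). Of 12 MAP kinases and their activators 11 were tested, and 1 rose and 3 fell with miR3124_mimic, 3 rose and 4 fell with miR200b_mimic, 4 fell with miR92b_inhibitor, and 3 rose and 7 fell in the mixed group. MAPK8, which encodes JNK1, and MAP2K4, its activator, rose with miR200b_mimic (0.60 and 0.68, adjusted p = 6.88e-14 and 4.78e-15). MAPK7, which encodes ERK5, fell in each comparison, from -0.27 with miR92b_inhibitor (adjusted p = 0.0187) to -1.13 in the mixed group (adjusted p = 3.66e-13).

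Heat shock genes were followed beside the members because transfection and handling can induce both. The part of handling in the members' changes was not tested. The list includes HSPA1A and HSPA1B, near-identical copies whose reads the counting could split. Of 6 tested, 4 fell with miR3124_mimic and the other 2 did not pass, 3 rose and 1 fell with miR200b_mimic, and 1 rose and 3 fell in the mixed group. With miR92b_inhibitor the lowest adjusted p of the 6 was that of HSP90AA1 (0.09, adjusted p = 0.0641). Their summed level was 5714 to 5916 CPM in miRcontrol and 5856 to 6125 with miR92b_inhibitor, against 4220 to 4273 with miR3124_mimic, 4876 to 5259 with miR200b_mimic and 4876 to 4903 in the mixed group. DNAJB1, a co-chaperone, was lower with miR3124_mimic (-0.63, adjusted p = 2.00e-18) and higher with miR200b_mimic (0.41, adjusted p = 1.20e-12). HSPH1 was higher by 0.73 with miR200b_mimic (adjusted p = 6.40e-22), and HSP90AA1 was lower there by log2 -0.88 (adjusted p = 1.07e-24).

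**Figure D5:**
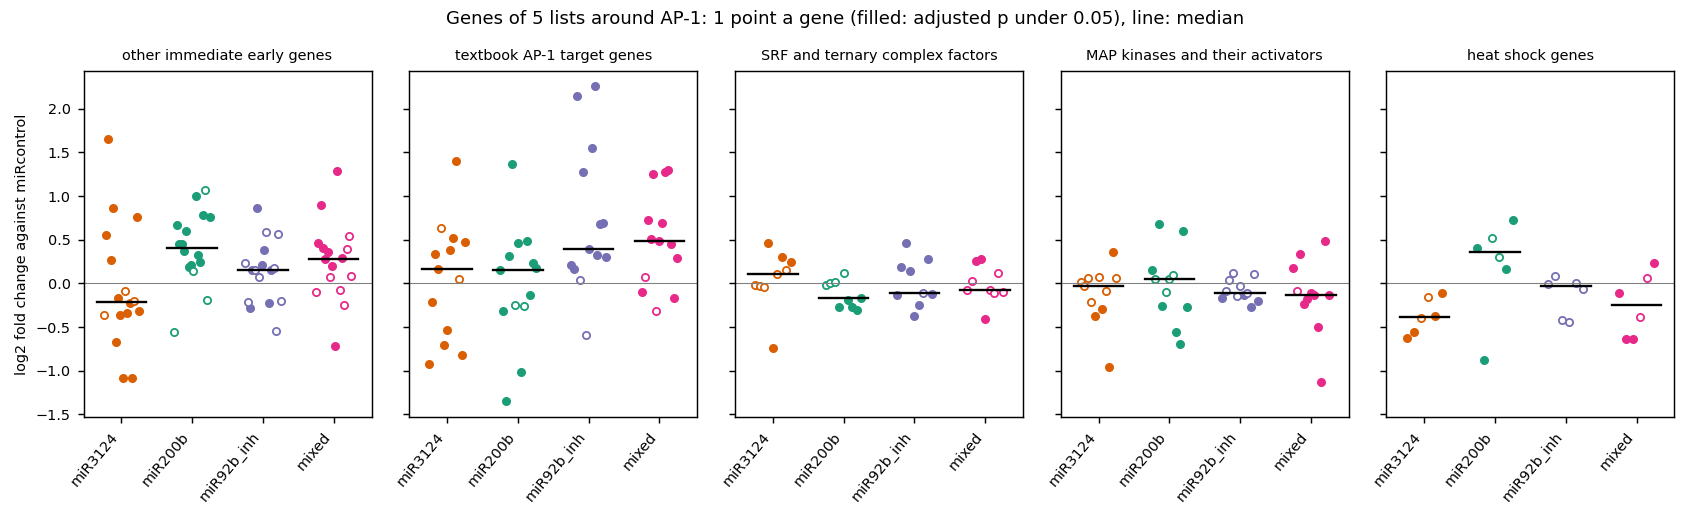
Log2 fold change against miRcontrol (vertical axis) of each tested gene of 5 lists in the 4 transfected groups, with filled points for an adjusted p under 0.05 and a line at the list's median. The AP-1 target list reaches its highest points with miR92b_inhibitor, with CXCL8 at 2.14 and MMP3 at 2.26, and its lowest with miR200b_mimic, with CXCL8 at -1.35.

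Among themselves the members did not follow 1 pattern over the 10 libraries, which share their groups, so that the correlations are descriptions over 10 points. FOSL1 and JUN ran together (Pearson r = 0.933 of log2 CPM), as did FOS and MAFF (0.921), ATF3 and EGR1 (0.882) and FOSL1 and EGR1 (0.838). The lowest value was that of FOS and JUND (-0.485). For the 3 members with the lowest p across the groups, the most alike of 12899 other genes with a mean of at least 1 CPM were DPP9 (r = 0.993), AEN (0.992) and MRPL2 (0.992) for FOSL1, RNPEPL1 (0.994), POM121 (0.993) and LSM4 (0.993) for JUND, and ADSL (0.986), EIF2A (0.982) and EEF1E1 (0.981) for EGR1. RNPEPL1 had 50.4 and 51.6 CPM in miRcontrol and 18.6 and 18.3 with miR3124_mimic, a drop like that of JUND, while ADSL moved over a narrower range than EGR1, from 82.5 CPM at the lowest to 117 at the highest.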

How the data were processed

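Total RNA of BEAS2B cells was made into directional libraries (NEBNext Ultra II Directional) and sequenced. The authors trimmed and aligned the reads and counted them per gene; the submitters' processing notes name TopHat and GRCh38. The counting tool, its strand setting and the annotation are not given in the sources used here. The deposited values are raw counts per gene, without normalization, in 58173 rows a library, of which 5771 repeat a symbol and were summed, with no blank rows.

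Counts were fitted with edgeR 4.0.16 (R 4.3.3, limma 3.58.1). Low genes were removed with filterByExpr, libraries were scaled by RLE factors, and 1 quasi-likelihood fit held all 10 libraries and no covariates, with Benjamini-Hochberg adjustment over 14884 genes. Genes were called at an adjusted p under 0.05, also with at least 2-fold. The common dispersion was 0.000751, and intervals cover 95%. The script was tested on simulated data. Replicate numbers did not pair the libraries (correlations -0.0296 to 0.0538 of deviations from the group means over 14884 genes). The alternatives were TMM, library totals only, DESeq2 1.42.0, edgeR's exact test, the 2 groups alone, a replicate block, no filter, a stricter filter of 10 counts per library and leaving each library out. All 10 members are named. Of each list, the 3 genes with the lowest F test p are named, as are the 3 genes most like the 3 members with the lowest p. Other list genes are given as counts, and MMP3, HBEGF, IVL, SRF, MKL2, NAB1, NAB2 and single cell type markers were named after their values were seen. The members and lists were chosen with earlier results of these data known. Seed words and lengths came from GENCODE v29, with 1 coding transcript a gene and the merged exons for length, and other sequences and coordinates from RefSeq (GRCh38.p14).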

Additional observations from a re-analysis of the deposited data

How the results depend on the processing

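Of 1278 values of single members under the alternatives, 1197 kept their direction and their side of the threshold, 32 changed sign, 39 lost a call and 10 gained one; of 232 counts, 227 stayed within 1.5 times. Every sign change was of a value that did not pass. The rises of FOS, MAFF and EGR1 and the falls of JUND and FOSL1 against miRcontrol that passed did so under every alternative. Asking for at least 10 counts in every library left fewer genes to test, and 740 (miR3124_mimic), 423 (miR200b_mimic), 131 (miR92b_inhibitor) and 402 (mixed) genes were then called at 2-fold, against 1210, 727, 285 and 695. DESeq2 called 131 in miR92b_inhibitor, for which the cause was not tested.

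With the replicate block the called genes numbered 1215, 722, 286 and 695, and FOSB in miR92b_inhibitor was 0.81 (adjusted p = 0.0542). The block changed no other call of a member against miRcontrol. FOSL2 changed sign near 0. With library totals it was 0.0115 in miR3124_mimic and 0.0063 in the mixed group, 0.013 between miR92b_inhibitor and miR200b_mimic and -0.0052 between mixed and miR3124_mimic. With TMM it was 0.0029 in the mixed group, and with at least 10 counts 0.0022 in miR3124_mimic and -0.0070 between mixed and miR3124_mimic.

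With each library left out in turn, log2 values that changed sign ranged as follows. Against miRcontrol, FOSB ran from -0.0555 to 0.0726 and FOSL2 from -0.0474 to 0.0158 in miR3124_mimic, FOSL1 from -0.0047 to 0.10 and JUN from -0.11 to 0.0252 in miR200b_mimic, FOSL2 from -0.0020 to 0.0510 in miR92b_inhibitor, and JUN from -0.0274 to 0.10 in the mixed group. Between miR92b_inhibitor and miR3124_mimic, FOS ran from -0.31 to 0.49 and JUNB from -0.0081 to 0.30. Between miR92b_inhibitor and miR200b_mimic, FOSB ran from -0.31 to 0.26, FOSL2 from -0.0312 to 0.0223 and JUNB from -0.48 to 0.27. Between mixed and the others, FOSL2 ran from -0.0240 to 0.0396 (miR3124_mimic), JUNB from -0.27 to 0.48 (miR200b_mimic) and EGR1 from -0.0058 to 0.42 (miR92b_inhibitor). MAFF ran from -0.18 to 0.0213 between miR200b_mimic and miR3124_mimic, and the departure of JUN from -0.10 to 0.17.

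With 2 libraries a group, the spread rests on all groups together, and a group left with 1 library is assumed to vary like the others. FOS and FOSB rest on 12 to 82 counts a library, so their intervals are the widest.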
